A study of Mus musculus with 15 samples.

Results

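The Ikaros family consists of 5 zinc-finger transcription factor genes, Ikzf1 (Ikaros), Ikzf2 (Helios), Ikzf3 (Aiolos), Ikzf4 (Eos) and Ikzf5 (Pegasus). They were taken by name from the 55536 genes of the deposited gene table that matched the GENCODE M21 annotation, and all 5 were among the 17366 genes that passed the filter on low counts. RNA sequencing had been done on CD8+ T cells of the OT-I line, whose transgenic receptor recognises an ovalbumin peptide (SIINFEKL), in 3 groups of 5 libraries. OT-I donors lacked Rag1 or Rag2 per the methods, so that the transgenic receptor was their T cell receptor in every group. Naive libraries came from OT-I mice whose cells were not transferred. For the Ag group, OT-I cells had been given to wild-type C57BL/6J recipients, which received the peptide and rat IgG as antibody control. Ag+Costim recipients received the peptide with agonist antibodies to OX40 (CD134) and 4-1BB (CD137). Transferred cells were taken from spleen and lymph nodes at day 4 per the labels, somewhat earlier per the methods, and sorted on CD8, a congenic CD45 marker and both receptor chains. Naive cells had not passed through a recipient, so transfer and antigen cannot be told apart in comparisons with Naive.

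Ikaros family proteins bind DNA through zinc fingers in the first part of the protein and pair with each other through a second set of fingers at the end. Ikaros recruits the nucleosome remodelling and deacetylase complex NuRD and can act as a repressor or an activator. Ikaros and Aiolos are known from lymphocyte development and as the proteins that thalidomide analogues direct to the ubiquitin ligase CRL4-cereblon, Helios and Eos from regulatory T cells, and Pegasus as the most divergent relative. Some transcripts that skip finger exons of Ikzf1, though not all, give short Ikaros proteins that pair with the long ones but bind DNA poorly.

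The exon that Ikzf1 to Ikzf4 share is shown first because it carries a pair of DNA-binding fingers and tells the genes apart. In each gene it is 168 bases long. The sequences below are from the GENCODE M21 transcripts (GRCm38), written 5′ to 3′ in the direction of the gene, with the cysteine and histidine codons of the fingers in capitals.
Ikzf1, chr11:11754007-11754174, plus strand: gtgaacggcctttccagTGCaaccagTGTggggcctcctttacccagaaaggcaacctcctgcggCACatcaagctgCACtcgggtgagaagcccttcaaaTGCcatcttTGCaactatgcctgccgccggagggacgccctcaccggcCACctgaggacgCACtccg
Ikzf2, chr1:69570493-69570660, minus strand: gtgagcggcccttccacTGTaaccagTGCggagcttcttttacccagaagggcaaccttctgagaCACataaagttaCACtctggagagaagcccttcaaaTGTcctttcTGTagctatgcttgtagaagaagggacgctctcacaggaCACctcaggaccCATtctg
Ikzf3, chr11:98488852-98489019, minus strand: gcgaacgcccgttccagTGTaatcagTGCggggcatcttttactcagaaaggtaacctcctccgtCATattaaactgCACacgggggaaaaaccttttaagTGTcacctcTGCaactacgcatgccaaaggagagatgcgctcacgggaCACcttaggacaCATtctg
Ikzf4, chr10:128640141-128640308, minus strand: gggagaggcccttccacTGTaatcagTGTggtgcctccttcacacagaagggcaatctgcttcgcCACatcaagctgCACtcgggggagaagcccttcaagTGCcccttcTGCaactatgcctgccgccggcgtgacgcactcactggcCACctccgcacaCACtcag

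Between 73.2% and 82.1% of the 168 bases were identical in each pair, with Ikzf1 and Ikzf4 the most alike. Over all annotated transcripts, the longest stretch shared by a pair of members was 32 bases, in Ikzf2 and Ikzf4, while reads were 50 bases long per the labels, so no read could match 2 members over its whole length. A finger was counted in frame as TGT or TGC, 2 to 4 codons, TGT or TGC, 12 codons, CAC or CAT, 3 to 5 codons, and a last histidine or cysteine codon. The main coding transcripts of Ikzf1, Ikzf2, Ikzf3 and Ikzf4 each held 6 such patterns and that of Ikzf5 held 5. A pattern was found in 3.79% of all annotated coding sequences that start with ATG.

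Libraries held 4865952 to 25280667 counts in total (median 14967616). T cell markers were high in all libraries, with a summed level of 4788 to 8824 CPM (counts scaled to library size, with edgeR's TMM factors by TMM), and Cd8b1 was at 1119 CPM or more. Ag 3 stood apart, with the lowest total, equal to 16.9% of its number of sequenced reads, and globin and other erythroid markers at 1312 CPM. Ag 2 and Ag 5 had input amounts of 1.4 and 1.8 (no unit given) where most libraries had 10. The 10 B cell markers summed to 32.2 to 34.1 CPM in Naive, to 28.7 to 55.2 in Ag+Costim, and to 195, 32.8, 525, 263 and 37.6 in Ag 1 to 5. All Ag libraries were on lane 2 and all Naive libraries on lane 3, so lane and group cannot be told apart there, while the Ag+Costim group was split, with libraries 1 to 3 on lane 2 and the others on lane 3. In bulk libraries, fewer cells of a type and less RNA per cell cannot be told apart.

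Ikzf1 was lower after antigen alone than in naive cells, and the mean of costimulated cells lay in between. The gene covers chr11:11685003-11772926 on GRCm38. In Naive 1 to 5 it was at 299, 194, 331, 317 and 311 CPM. In Ag 1 to 5 it was at 198, 145, 206, 199 and 128 CPM. Ag+Costim 1 to 5 had 247, 251, 229, 277 and 255 CPM. Naive 2 was the single naive library inside the Ag range, and the Ag+Costim libraries lay above every Ag library and close together. The 2 lowest Ag values were those of Ag 2 and Ag 5, the libraries with the smallest input. In Ag vs Naive, Ikzf1 fell by 0.73 on the log2 scale (SE 0.16, edgeR FDR 0.0202). The estimate was -0.69 without Ag 2 (FDR 0.0636) and -0.64 without Ag 5 (FDR 0.0373), beside 2.84% and 4.24% of all genes called. Leaving out Naive 1, Naive 3, Naive 4 or Ag 2 ended the call (FDR 0.0600 to 0.0636). Those fits called 1.42%, 1.48%, 1.52% and 2.84% of all genes, where the fit on all libraries called 6.71%. The log2 fold change in Ag+Costim vs Ag was 0.52 (SE 0.16, FDR 0.0850), which did not pass. DESeq2 called Ikzf1 there (FDR 0.0224), beside 11.4% of the 48768 genes to which it gave a p, without edgeR's filter on low counts. Ag+Costim and Naive differed by -0.21 (SE 0.16, FDR 0.296), with a 95% interval of -0.52 to 0.11.

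Ikzf3 moved the other way. It covers chr11:98464902-98546031 on the minus strand. Naive 1 to 5 had 92.7, 103, 57.0, 80.1 and 164 CPM. Ag 1 to 5 had 159, 180, 159, 264 and 160 CPM. Ag+Costim 1 to 5 had 179, 195, 173, 143 and 175 CPM. Naive 1 to 4 lay below every other library, while Naive 5 lay within the ranges of both other groups. Ikzf3 rose by 0.89 on the log2 scale in Ag vs Naive (SE 0.23, FDR 0.0370) and by 0.80 in Ag+Costim vs Naive (SE 0.23, FDR 0.0181). Without Naive 1, 2, 3 or 4 or Ag 2, 4 or 5 the first call was lost (FDR 0.0521 to 0.113), and without Naive 4 the second (FDR 0.0515). Ag+Costim and Ag were not told apart, at -0.09 (SE 0.23, FDR 0.813, 95% interval -0.55 to 0.36).

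B cells express Ikzf3 too, so the markers are set beside it. Ag 4, with a B cell marker sum of 263 CPM, had the highest Ikzf3 level of its group, 264 CPM. Ag 1 and Ag 3, with marker sums of 195 and 525 CPM, had Ikzf3 at 159 CPM each. Ag 2 and Ag 5, whose marker sums were 32.8 and 37.6 CPM and in which Pax5 had no count, had Ikzf3 at 180 and 160 CPM. The part of B cells in the Ikzf3 level was not tested.

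Ikzf2 and Ikzf4 followed each other from library to library, and both were lowest after costimulation. Ikzf2 covers chr1:69531214-69687245 on the minus strand. It was at 50.3, 47.2, 30.8, 51.3 and 12.6 CPM in Naive 1 to 5. Ag 1 to 5 had 72.3, 8.20, 30.5, 52.5 and 7.45 CPM. Ag+Costim libraries had 11.2, 9.997, 10.7, 6.23 and 6.53 CPM. The Ag group thus spread from the level of costimulated cells, in Ag 2 and Ag 5, to above all naive libraries, in Ag 1, and Naive 5 was the naive library nearest to Ag+Costim. Ikzf2 fell by 2.11 on the log2 scale in Ag+Costim vs Naive (SE 0.58, FDR 0.0145), with no overlap between the groups. The log2 fold change in Ag+Costim vs Ag was -1.94 (SE 0.58, FDR 0.0829), short of the threshold, and in Ag vs Naive -0.17 (SE 0.55, FDR 0.854).

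Ikzf4 was the least abundant member. It covers chr10:128630843-128645991 on the minus strand. Counts were 85, 47, 75, 58 and 11 in Naive 1 to 5, or 5.44, 3.71, 2.80, 4.03 and 0.731 CPM. In Ag 1 to 5 there were 29, 4, 27, 40 and 0 counts, or 2.50, 0.276, 5.88, 2.86 and 0 CPM, where 3 counts in Ag 5 would have been 0.188 CPM. In Ag+Costim 1 to 5 there were 8, 4, 4, 5 and 3 counts, or 0.209 to 0.530 CPM. As for Ikzf2, Ag 2, Ag 5 and Naive 5 were the low libraries of their groups. Ikzf4 fell by 3.29 on the log2 scale in Ag+Costim vs Naive (SE 0.95, FDR 0.0173), again without overlap. The log2 fold changes in Ag+Costim vs Ag and Ag vs Naive were -2.69 (SE 0.95, FDR 0.104) and -0.59 (SE 0.85, FDR 0.652).

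For both genes the call in Ag+Costim vs Ag changed when Ag 2 or Ag 5 was left out, as it did for many other genes. Without Ag 2, Ikzf2 and Ikzf4 passed at FDR 0.0316 and 0.0456, where 14.8% of all genes were called instead of 0.0346%. Without Ag 5 they passed at 0.0228 and 0.0227, where 19.7% were called. DESeq2 on all libraries gave 0.00913 and 0.0215, with 11.4% of 48768 genes called, since it was run with no filter on low counts beforehand.

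Helios and Eos mark regulatory T cells, so the levels of CD4 and regulatory T cell markers were compared. Their 5 markers summed to 8.18 to 23.2 CPM in Naive libraries, 3.93 to 35.0 in Ag and 4.39 to 9.07 in Ag+Costim, low where Ikzf2 was low. Cd40lg held most of the sum in Naive 1 to 4, and Zbtb7b the largest part in Ag 1 and Ag 4, at 10.9 and 19.5 CPM. Foxp3, which defines regulatory T cells, was at 0 to 0.448 CPM in Naive and 0 to 0.633 CPM in Ag+Costim. In Ag 1, 3 and 4, where Ikzf2 was at 72.3, 30.5 and 52.5 CPM, Foxp3 was at 1.12, 0.871 and 0.716 CPM, and in Ag 2 and Ag 5, where Ikzf2 was low, it had no count. Foxp3 was thus detected in the Ag libraries with the higher Ikzf2 levels, but at 1.12 CPM or less, which is few counts. Cd4 was at 0.298 to 0.798 CPM in Naive, at 2.07, 0, 4.79, 0.859 and 2.57 CPM in Ag 1 to 5, and at 0 to 1.054 CPM in Ag+Costim. NK cell markers summed to 10.1 to 51.9, 2.34 to 35.1 and 0 to 2.25 CPM in Naive, Ag and Ag+Costim. The part of these other cells in the results was not tested.

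Ikzf5 was lower in both stimulated groups than in Naive. It covers chr7:131388652-131410521 on the minus strand. Naive 1 to 5 had 25.5, 20.7, 23.7, 25.6 and 25.7 CPM. Ag 1 to 5 had 16.6, 13.4, 15.2, 17.3 and 12.1 CPM. Ag+Costim libraries had 15.4, 16.7, 16.2, 19.2 and 13.7 CPM. Every naive library lay above every stimulated library, and the Ag and Ag+Costim ranges overlapped. Ikzf5 fell by 0.70 on the log2 scale in Ag vs Naive (SE 0.13, FDR 0.0121) and by 0.58 in Ag+Costim vs Naive (SE 0.13, FDR 0.00726). Ag+Costim differed from Ag by 0.12 (SE 0.13, FDR 0.562, 95% interval -0.14 to 0.38).

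Ikzf5 shares 4652 of its 5721 exonic bases with exons of Pstk on the other strand, mostly with the single-exon transcript Pstk-211. The library kit does not mark strand, so reads there cannot be assigned to either gene with certainty. Pstk-211 was given 0 to 60 counts per library, most in Ag 3, where Ikzf5 itself had 70. With those counts moved to Ikzf5, Ag 3 rose to 28.3 CPM, above every naive library (24.4 to 26.7 CPM). Ikzf5 was then no longer called in Ag vs Naive (log2 fold change -0.47, FDR 0.126, beside 6.70% of all genes) but was still called in Ag+Costim vs Naive (-0.61, FDR 0.0224, beside 44.7%).

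**Figure D1:**
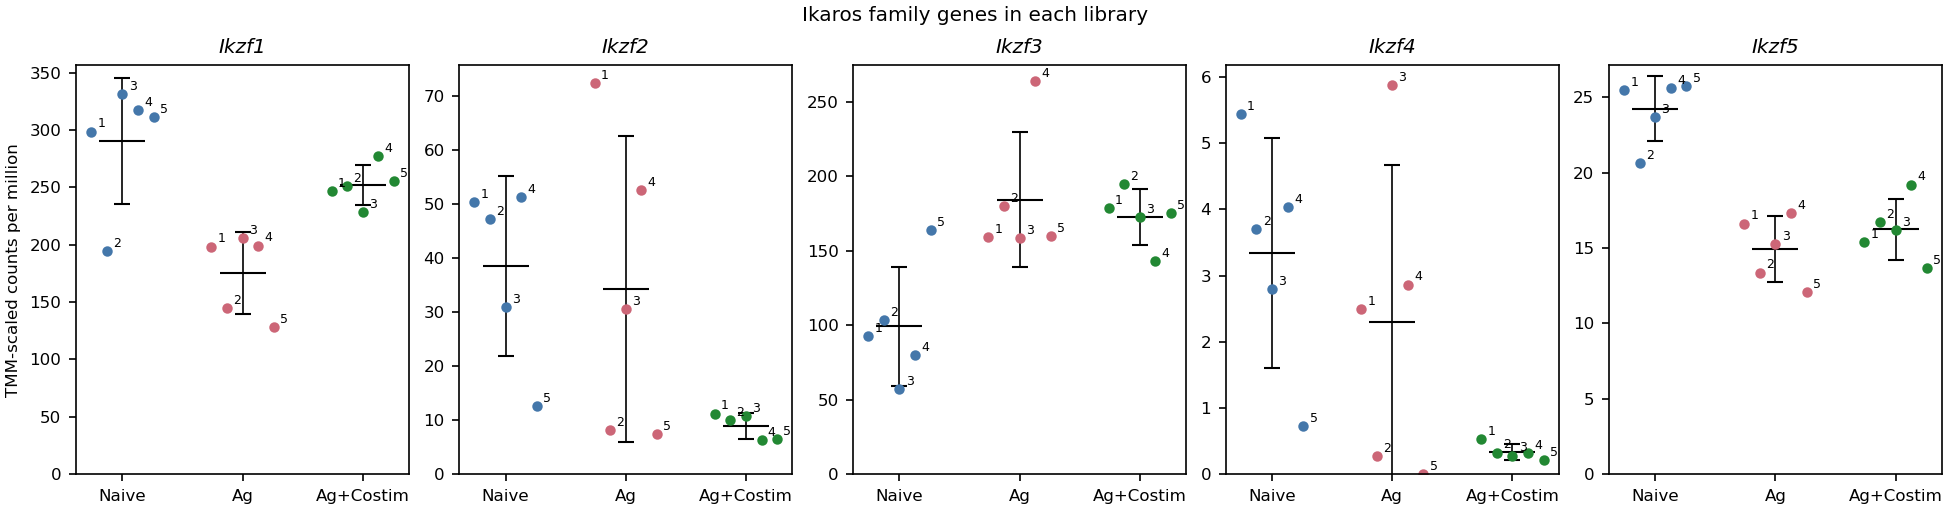
TMM-scaled CPM of the 5 Ikaros family genes (vertical axes, each from 0) in the Naive, Ag and Ag+Costim libraries. Each point is a library with its replicate number, the horizontal bars are means and the error bars SDs (n = 5, cut off at 0), and Ag 2, Ag 5 and Naive 5 are the low libraries of their groups for Ikzf2 and Ikzf4.

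The members differed in how they varied between the libraries of a group. Over the 15 libraries, Pearson's r of log2(CPM + 1) was 0.91 between Ikzf2 and Ikzf4 and 0.78 between Ikzf1 and Ikzf5, and between -0.65 and 0.56 for the other pairs. These values are descriptions, since the libraries share groups and the genes share libraries. Naive 5 had Ikzf2, Ikzf3 and Ikzf4 at 12.6, 164 and 0.731 CPM, each nearer to Ag+Costim than the other naive libraries were. The same library had Ikzf1 and Ikzf5 at 311 and 25.7 CPM, within the range of the other naive libraries or just above it. Ag 1 and Ag 4 showed the reverse combination, with Ikzf2 at 72.3 and 52.5 CPM, above all naive libraries, and Ikzf5 at 16.6 and 17.3 CPM, below all of them.

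**Figure D2:**
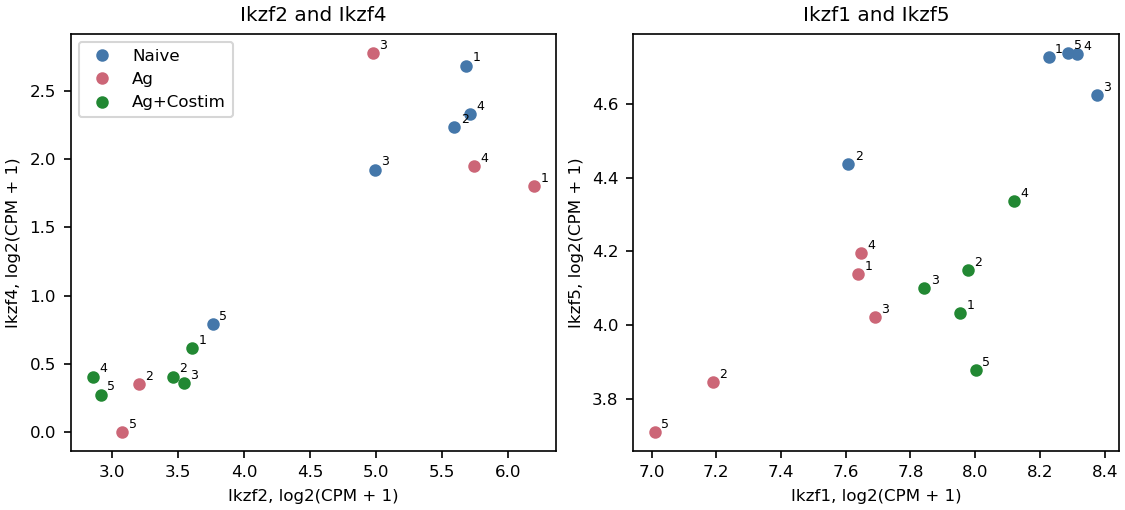
Ikzf4 against Ikzf2 (left) and Ikzf5 against Ikzf1 (right) as log2(CPM + 1), where each point is a library with its replicate number and the colour gives the group. On the left, Naive 5, Ag 2 and Ag 5 lie nearest to the Ag+Costim libraries, and on the right Naive 5 lies with Naive 1 and Naive 4.

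Read against all genes tested, 3 of the 5 members were called in Ag vs Naive, 1 higher and 2 lower, where 6.71% of all genes were called (3.05% higher and 3.66% lower). In this comparison 1 member, Ikzf5, had groups that did not overlap, as did 3.85% of all genes. In Ag+Costim vs Ag, 0 of 5 members were called by edgeR (3 at an unadjusted p under 0.05), where 0.0346% of all genes were called and 26.8% had an unadjusted p under 0.05. DESeq2 and voom each called 3 members, beside 11.4% and 64.5% of the genes they tested. The 11.4% is of 48768 genes that include those below the filter on low counts, and the 64.5% is of the 17366 that passed it. The members all passed it, so the 11.4% is not a like measure for them. Ikzf1 was the member without overlap there, as were 6.33% of all genes. Between Ag+Costim and Naive, 4 of 5 members were called, 1 higher and 3 lower, beside 44.7% of all genes (21.0% higher and 23.6% lower). Ikzf2, Ikzf4 and Ikzf5 had no overlap between these groups, as had 45.0% of all genes. The median log2 fold change of the members was -0.59, -0.09 and -0.58 in these comparisons and that of all genes 0.08, -0.10 and -0.08. The 3 comparisons share libraries and are not independent.

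With lane as a term, 0 members were called in any of the 3 comparisons. In Ag vs Naive the estimates were then -0.59 for Ikzf1, 0.70 for Ikzf3 and -0.67 for Ikzf5 (FDR 0.626 for each), and no gene was called. For Ag+Costim vs Naive they were -2.59 for Ikzf2, 0.68 for Ikzf3, -3.60 for Ikzf4 and -0.56 for Ikzf5 (FDR 0.0636 to 0.115), close to those without the term, and 5.43% of all genes were called. Within lane 3, where 2 Ag+Costim libraries were compared with the 5 naive ones, Ikzf2 (-2.59, FDR 0.0264) and Ikzf4 (-3.60, FDR 0.0280) were called, while Ikzf3 (0.69, FDR 0.127) and Ikzf5 (-0.56, FDR 0.0589) were not, beside 34.7% of all genes. Within lane 2, 3 Ag+Costim libraries against the 5 Ag libraries gave 0.48 for Ikzf1, -1.67 for Ikzf2 and -2.52 for Ikzf4 (FDR 0.628 for each), and no gene was called.

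**Figure D3:**
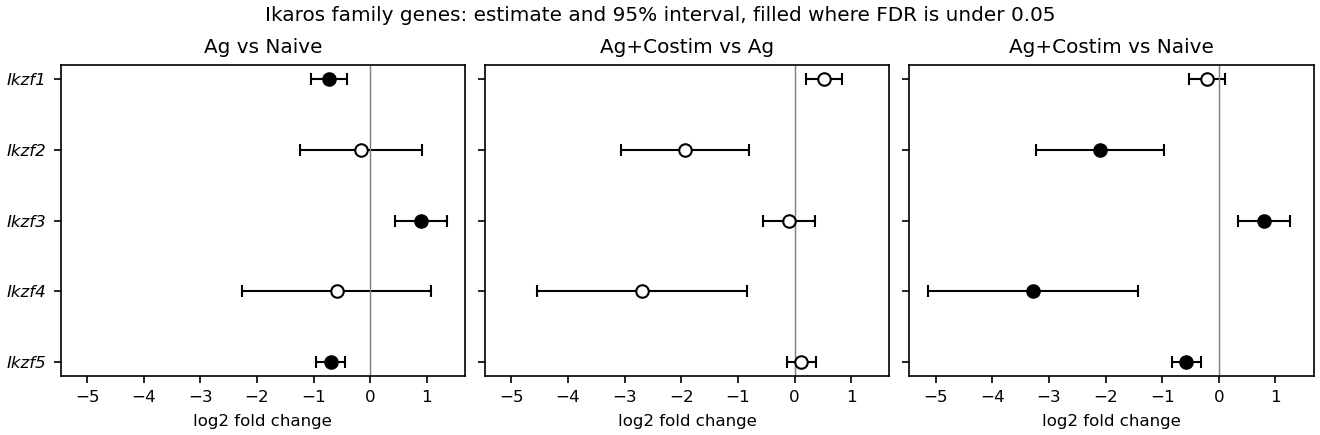
Log2 fold change of each Ikaros family gene (horizontal axis) in Ag vs Naive, Ag+Costim vs Ag and Ag+Costim vs Naive, from edgeR on all 15 libraries. Error bars are 95% intervals and filled points have an FDR under 0.05, which 3, 0 and 4 members reached.

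Levels of different members were compared per transcript length, as TPM, in which counts are divided by transcript length and scaled to the same sum in each library. All annotated transcripts of a gene were summed, including forms of Ikzf2 and Ikzf3 annotated as retaining an intron. Those of Ikzf2 are 2170 and 1905 bases long and its coding form Ikzf2-201 is 9278, so they weigh more per count. The TPM of Ikzf2 is thus not that of its coding form, and its rank may differ for coding transcripts alone. In Naive the order of mean TPM was Ikzf1 (135 ± 31.6, SD, n = 5), Ikzf3 (47.9 ± 16.7), Ikzf2 (18.9 ± 9.10), Ikzf5 (10.7 ± 0.942) and Ikzf4 (1.06 ± 0.554). Ikzf2 and Ikzf5 overlapped in range there. In Ag, Ikzf3 (79.1 ± 26.9) and Ikzf1 (73.0 ± 22.7) lay within each other's spread, as did Ikzf2 (12.5 ± 13.3) and Ikzf5 (7.29 ± 3.11), with Ikzf4 last (0.657 ± 0.633). In Ag+Costim, Ikzf1 (102 ± 9.53) was above Ikzf3 (75.5 ± 9.09) in every library, and Ikzf5 (7.07 ± 1.43) was above Ikzf2 (3.16 ± 0.909), with Ikzf4 at 0.0949 ± 0.0336.

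The make-up of the family differed between the groups, and no test was run on these shares. Ikzf1 made up 62.6% ± 8.31 of the summed family TPM in Naive libraries, 42.6% ± 5.94 in Ag and 54.4% ± 4.19 in Ag+Costim (SD, n = 5). Ikzf3 made up 22.8% ± 8.36, 46.8% ± 9.25 and 40.1% ± 4.06. The ratio of Ikzf1 to Ikzf3 ranged from 1.66 to 4.90 in Naive libraries, from 0.701 to 1.40 in Ag and from 1.17 to 1.80 in Ag+Costim. Ag and Naive did not overlap in this ratio, and Ag+Costim overlapped with both. The share of Ikzf2, with its short retained-intron forms included, was 8.996%, 6.00% and 1.67%, and that of Ikzf5 5.06%, 4.25% and 3.78%.

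**Figure D4:**
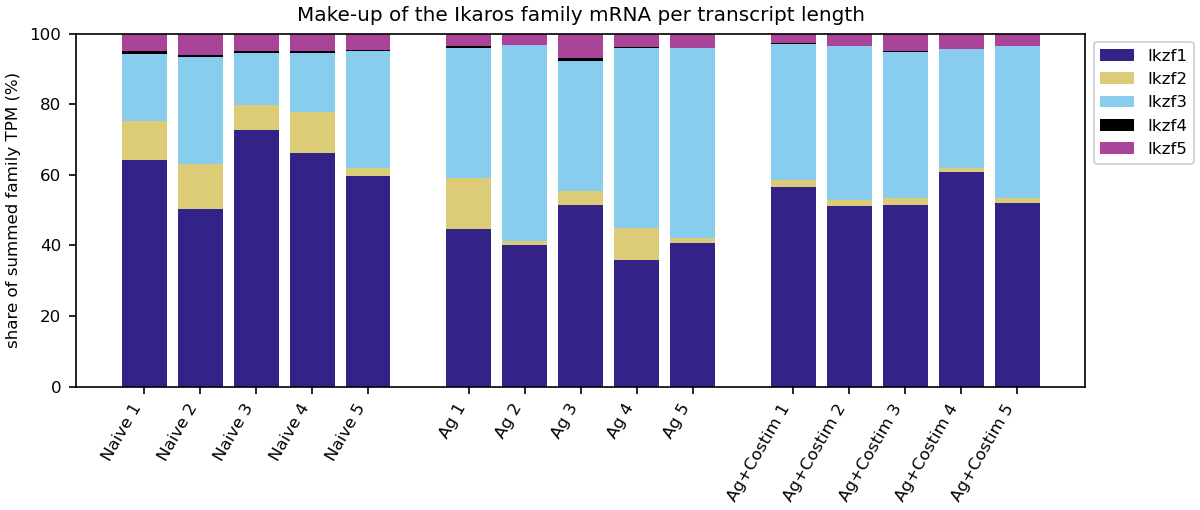
Share of each Ikaros family gene in the summed family TPM (vertical axis, percent) of every library. Ikzf1 is the largest share in all Naive and Ag+Costim libraries, Ikzf3 in Ag 2, Ag 4 and Ag 5.

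Transcript forms were examined next, since Ikaros function depends on which finger exons are kept. In Ikzf1, 2 exons were partly skipped, and their sequences are shown because they mark the forms that were counted. The 261-base exon holds the first whole DNA-binding finger (capitals mark its cysteine and histidine codons) and is missing from Ikzf1-201, Ikzf1-202 and Ikzf1-205. Ikzf1-201 still holds 5 finger patterns without it. The 60-base exon holds no finger and is found in Ikzf1-203 alone.
Ikzf1, 261-base exon, chr11:11748311-11748571, plus strand: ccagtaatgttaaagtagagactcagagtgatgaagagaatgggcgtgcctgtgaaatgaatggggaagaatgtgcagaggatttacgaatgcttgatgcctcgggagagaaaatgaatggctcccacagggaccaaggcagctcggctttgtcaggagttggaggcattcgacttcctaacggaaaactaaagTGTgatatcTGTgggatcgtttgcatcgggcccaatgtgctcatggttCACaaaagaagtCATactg
Ikzf1, 60-base exon, chr11:11740950-11741009, plus strand: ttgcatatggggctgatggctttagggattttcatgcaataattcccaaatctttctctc

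Most Ikzf1 counts were on transcripts with the 261-base exon in every library. Its share of including and skipping counts ranged from 0.884 to 0.959 in Naive libraries, from 0.843 to 0.939 in Ag and from 0.867 to 0.967 in Ag+Costim. The means of 0.913, 0.898 and 0.923 differed by less than the spread of the libraries, and no comparison passed (exact permutation test, two-sided, p = 0.508, 0.302 and 0.635 for Ag vs Naive, Ag+Costim vs Ag and Ag+Costim vs Naive, adjusted p of at least 0.603 over 6 tests). The smallest p that 5 against 5 libraries allow is 0.00794. These shares are of counts not divided by transcript length. The forms with the exon, Ikzf1-203 and Ikzf1-204, are 4697 and 5163 bases long. Those without it, Ikzf1-201, Ikzf1-202 and Ikzf1-205, are 1542, 911 and 446 bases long. Longer transcripts give more counts per molecule, so the share of molecules with the exon is lower than the share of counts.

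The 60-base exon was uneven between the libraries of a group. Its share was 0.0265, 0.0335, 0.374, 0.0279 and 0.396 in Naive 1 to 5. In Ag it was 0.0222, 0.0790, 0.0244, 0.0328 and 0.0153. Ag+Costim had 0.0167, 0.0192, 0.0216, 0.00942 and 0.208. Naive 3, Naive 5 and Ag+Costim 5 stood far above the other 12 libraries, and in the first pair Ikzf1-203 held 3309 of 8876 and 1845 of 4682 Ikzf1 counts (95% Wilson intervals of the share 0.363 to 0.383 and 0.380 to 0.408, counting error only). None of the exact permutation tests passed (p = 0.206, 0.952 and 0.175, adjusted p of at least 0.603). Ikzf1-203 and Ikzf1-204 also differ at their ends, so counts assigned to them do not come from this exon alone. The share of Ikzf1-204, the main form, was 0.517 to 0.878 in Naive libraries, 0.817 to 0.896 in Ag and 0.756 to 0.912 in Ag+Costim.

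Transcripts annotated as retaining an intron, which are not annotated as coding, held a large part of the Ikzf2 counts in naive cells. Their share (Ikzf2-203 and Ikzf2-205) was 0.497, 0.447, 0.445, 0.484 and 0.413 in Naive 1 to 5. It was 0.370, 0, 0.114, 0.362 and 0.143 in Ag 1 to 5. In Ag+Costim 1 to 5 it was 0.355, 0.350, 0.283, 0.292 and 0.362. Every naive library was above every other library, and how many of all genes separate in this way was not counted. Transcript usage of Ikzf2 was not called in any comparison. By edgeR's diffSpliceDGE its p was 0.894, 0.913 and 0.851 in Ag vs Naive, Ag+Costim vs Ag and Ag+Costim vs Naive. Ag 2 had 0 of 119 counts on these forms, with a 95% Wilson upper limit of 0.0313. A count of 3 there would be a share of 0.0252. The coding form Ikzf2-201 held 0.466 to 0.550 of the counts in naive libraries, while Ag had 0.590 to 0.983 and Ag+Costim 0.609 to 0.711. Counting coding transcripts alone (an alternative chosen after seeing the data), Ikzf2 was still called in Ag+Costim vs Naive (-1.89, FDR 0.0153, beside 37.7% of all genes), and its sign turned in Ag vs Naive (0.21, FDR 0.799).

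Ikzf3 had 1 such form, Ikzf3-203. Its share was 0.364, 0.155, 0.165, 0.306 and 0.0560 in Naive 1 to 5. Ag 1 to 5 had 0.115, 0.0371, 0.0728, 0.0708 and 0.0192, and Ag+Costim ranged from 0.0223 to 0.0360. The naive libraries were above every Ag+Costim library, with Naive 5 the closest, and how many of all genes separate in this way was not counted. The coding form Ikzf3-201 had a mean share of 0.747 ± 0.129 in naive libraries, while Ag had 0.909 ± 0.0364 and Ag+Costim 0.943 ± 0.00643 (SD, n = 5). With coding transcripts alone, Ikzf3 rose by 1.11 in Ag vs Naive (FDR 0.0261, beside 9.00% of all genes) and by 1.00 in Ag+Costim vs Naive (FDR 0.0153).

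Transcript usage was tested over 25932 transcripts of 7501 genes, and a gene was called when its FDR and that of a transcript were under 0.05 and the mean share of that transcript moved by at least 0.1. Of the 3 members with at least 2 tested transcripts, 0 were called in Ag vs Naive, Ag+Costim vs Ag or Ag+Costim vs Naive, where 0.640%, 0.947% and 1.23% of the genes were called. At an unadjusted p under 0.05 there were 1, 0 and 1 by edgeR's diffSpliceDGE, namely Ikzf1 in Ag vs Naive (FDR 0.189) and Ikzf3 in Ag+Costim vs Naive (FDR 0.209). How many of the 7501 genes had an unadjusted p under 0.05 was not counted, so these members cannot be set against all genes. With limma's diffSplice, Ikzf3 was called in Ag vs Naive (FDR 0.0110) and in Ag+Costim vs Naive (FDR 5.98e-05), beside 1.81% and 9.09% of the genes. Without Ag+Costim 5, Ikzf1 was called in Ag+Costim vs Naive (FDR 0.0292), beside 1.18%. Ikzf4 and Ikzf5 could not be tested, as all Ikzf4 counts were on Ikzf4-201 and a mean of at least 0.947 of the Ikzf5 counts on Ikzf5-201 in each group.

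**Figure D5:**
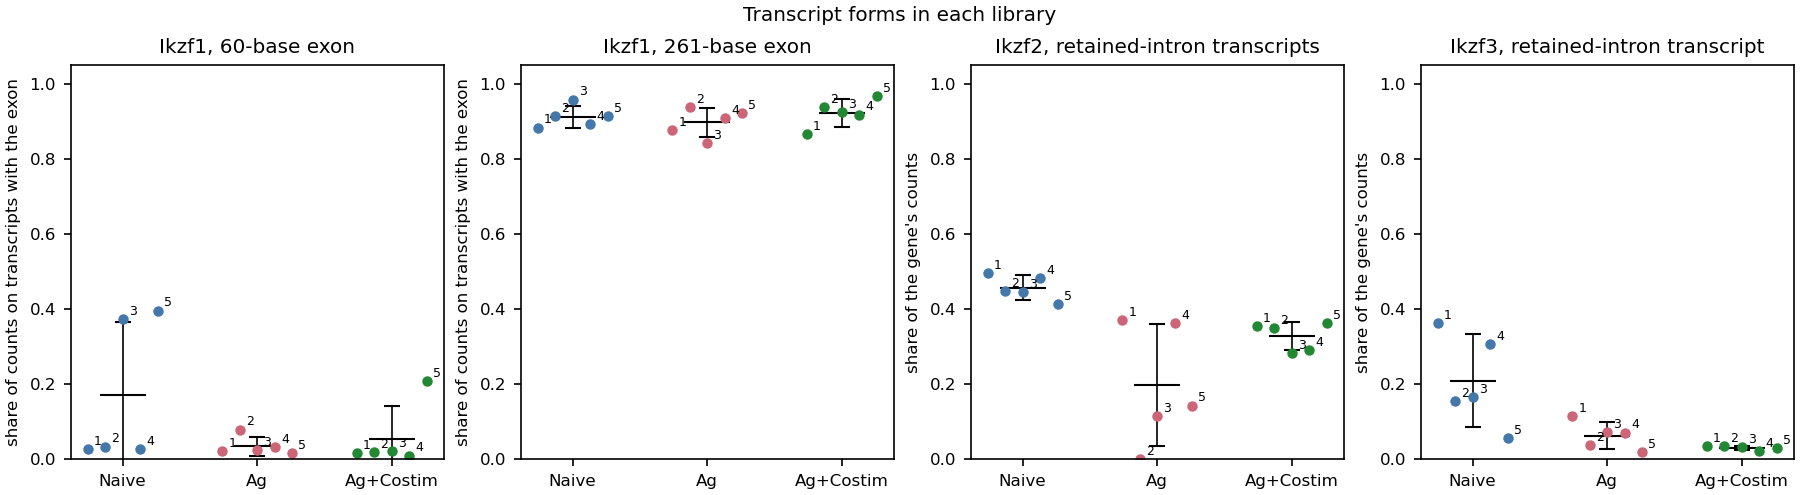
Share of counts (vertical axes, 0 to 1) on Ikzf1 transcripts with the 60-base or the 261-base exon, and on retained-intron transcripts of Ikzf2 and Ikzf3. Points are libraries with their replicate numbers, horizontal bars means and error bars SDs (n = 5, cut off at 0), and the 60-base exon is high in Naive 3, Naive 5 and Ag+Costim 5.

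Partner genes were compared as lists. NuRD is the main partner of Ikaros, and all 13 of its listed genes passed the filter. In Ag vs Naive 0 rose and 1 fell, beside 3.05% and 3.66% of all genes. The gene that fell was Mta3, a subunit gene of NuRD, at 130 ± 30.8 CPM in Naive and 65.2 ± 10.98 in Ag (log2 fold change -0.99, SE 0.17, FDR 0.00874). Between Ag+Costim and Naive 4 rose and 3 fell, beside the 21.0% and 23.6% of all genes given above. Rbbp7, a histone-binding subunit, rose by 1.14 (SE 0.35, FDR 0.0227). Mta3 fell by 1.11 (SE 0.17, FDR 0.00173) and Chd3, a remodelling ATPase, by 1.67 (SE 0.44, FDR 0.0127), from 106 ± 33.8 to 33.2 ± 4.09 CPM. The median of the list was -0.02 and 0.26 in these comparisons.

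The 22 genes of SWI/SNF, the other remodelling complex that Ikaros binds, all passed the filter. In Ag vs Naive 1 of them was called, beside 6.71% of all genes. Arid2 was that gene and fell by 0.56 (SE 0.14, FDR 0.0318). Between Ag+Costim and Naive 7 rose and 5 fell, beside 21.0% and 23.6% of all genes. Smarca2, a catalytic subunit, fell by 1.69 (SE 0.32, FDR 0.00374) and Arid1b by 1.01 (SE 0.30, FDR 0.0197), while the core subunit Smarcc1 rose by 0.97 (SE 0.24, FDR 0.00955). Of the 7 Sin3 and CtBP corepressor genes, 0 were called in Ag vs Naive. At an unadjusted p under 0.05 by edgeR there were 3, beside 28.7% of all genes. In Ag+Costim vs Naive 2 rose, beside 21.0% of all genes, Sap30 by 1.22 (FDR 0.0332) and Sap18 by 0.49 (FDR 0.0397).

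Enzymes that act on Ikaros proteins were casein kinase 2 and protein phosphatase 1, which set Ikaros phosphorylation, and CRL4-cereblon. Of these 11 genes, 0 were called in Ag vs Naive. At an unadjusted p under 0.05 by edgeR there were 2, beside 28.7% of all genes. In Ag+Costim vs Naive 6 rose and 1 fell, beside 21.0% and 23.6% of all genes. Ppp1ca, a phosphatase catalytic subunit, rose by 0.86 (SE 0.22, FDR 0.0112), Csnk2b, the kinase regulatory subunit, by 0.72 (SE 0.21, FDR 0.0177), and Ddb1, the ligase adaptor, by 0.69 (SE 0.21, FDR 0.0192). The median was 0.43 against -0.08 for all genes.

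Of 17 genes described as targets of the family, 12 passed the filter. In Ag vs Naive 1 rose and 3 fell, beside 3.05% and 3.66% of all genes. Ifng, the effector cytokine interferon gamma, rose from 2.25 ± 1.79 CPM in Naive to 8.79 ± 3.86 in Ag (log2 fold change 1.98, SE 0.45, FDR 0.0222). Bcl2, a survival factor, fell by 2.06 (SE 0.41, FDR 0.0145). Il7r, the interleukin-7 receptor chain of naive and memory cells, fell by 1.996 (SE 0.34, FDR 0.00874). For Ag+Costim vs Naive, 2 rose and 7 fell, beside 21.0% and 23.6% of all genes. Bcl2 fell by 3.04 (SE 0.43, FDR 0.00130), from 298 ± 120 to 36.3 ± 10.4 CPM, and Il7r by 2.82 (SE 0.35, FDR 0.000954), from 593 ± 206 to 83.9 ± 12.3 CPM. Dntt, the terminal transferase of developing lymphocytes, had 276 counts over the naive libraries and 0 over the Ag+Costim libraries, which is at least 77.7-fold lower with 3 counts over the group as the floor (FDR 0.00792). The median of the list was -0.34 and -0.81 in the 2 comparisons. In Ag+Costim vs Ag, 0 genes of any of these 5 lists were called by edgeR (22 of 65 at an unadjusted p under 0.05, beside 26.8% of all genes). DESeq2 called 11 and voom 51 of the list genes, beside 11.4% and 64.5% of the genes they tested. The 11.4% is again of 48768 genes without the filter on low counts, so it is not a like measure for these 65.

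The genes most like each member over the 15 libraries were named by Pearson's r of log2(CPM + 1) among genes whose mean CPM was 5 or more. For Ikzf1 they were Mfsd12 (0.96), Brpf1 (0.95) and Kpna4 (0.95), all lowest in Ag. For Ikzf2 they were Rnf169, Zfp950 and Zbtb20 (0.97, 0.97 and 0.96), and for Ikzf4 Cwf19l2, Zkscan8 and Pibf1 (0.99, 0.98 and 0.97), all lowest in Ag+Costim. Zbtb20, itself a zinc-finger factor, had mean CPM of 70.1, 42.6 and 6.57 in Naive, Ag and Ag+Costim. Ikzf3 was closest to Rgs1 (0.95), Ttc39b (0.95) and Ctla4 (0.95), and Ctla4, an inhibitory receptor of activated T cells, was at 11.8, 83.3 and 53.2 CPM. Ikzf5 was closest to Dtx1, Casc3 and Sp3 (each 0.92), and Dtx1, an E3 ligase of the Notch pathway, is also on the target list, with 125, 65.5 and 66.7 CPM.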

How the data were processed

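RNA sequencing of 15 libraries (Naive, Ag and Ag+Costim, 5 each) was analysed. The authors aligned 50-base single reads with HISAT2 2.1.0 (mm10) and ran StringTie 2.1.0, per the submitters' processing notes, and the deposited gene and transcript tables hold its estimated read counts as whole numbers, not normalised. How StringTie turned coverage into counts is not given in the sources used here. The kit (SMART-Seq v4, Nextera XT) does not mark strand. A quality table of the sequencing core gives, per the file headers, a count of reads, the percent of reads aligned and counted, the percent complexity, and an input amount, a score without a unit. The deposited table of FPKM was not used, because 2 of its columns were identical.

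Of 81881 gene entries, 55536 matched GENCODE M21 (GRCm38). Entries named by a number held 0.0818% of counts and were left out with 97 entries without counts. Genes were tested with edgeR 4.0.16 (R 4.3.3): filterByExpr, TMM, robust quasi-likelihood fit with 1 coefficient per group on all libraries (common biological coefficient of variation 0.431), two-sided, Benjamini-Hochberg FDR under 0.05. DESeq2 1.42.0 and limma 3.58.1 were alternatives. DESeq2 was run without edgeR's filter. It adjusted p over the genes that its own default filter kept, whose number was not recorded. Its shares of called genes are of the 48768 genes with a p. Transcript usage was tested with diffSpliceDGE. TPM was computed from transcript counts and annotated lengths. An exon's share is the count of transcripts holding it over that of transcripts holding or splicing across it, in libraries with at least 20 such counts, and exons with a mean share between 0.02 and 0.98 in a group were tested. The scripts were tested on simulated data. Named were the 5 members, transcripts with a mean share of at least 0.1 in a group, up to 3 called genes per list and comparison with the largest change, and the 3 most correlated genes per member (no pseudogene, Gm or Rik names). Members and lists were chosen with earlier results of these data known. Pstk was named after its values were seen. Libraries of a group are described in the study as individual biological replicates.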

Additional observations from a re-analysis of the deposited data

Results flagged for a closer look

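In 48 sets of 5 libraries, the highest or lowest value was compared with its nearest neighbour, and a gap of more than 0.71 of the range was taken as standing apart, which chance gives in about 1 in 20 groups, or 2.4 of 48. For Ikzf1, Naive 2 was at 194 CPM with the nearest naive library at 299. For Ikzf3, Ag 4 was at 264 CPM with the nearest Ag library at 180. The share of the Ikzf1 60-base exon was 0.0790 in Ag 2 (nearest 0.0328) and 0.208 in Ag+Costim 5 (nearest 0.0216). The share of Ikzf1-203, the transcript that holds this exon, was 0.0788 in Ag 2 (nearest 0.0327) and 0.208 in Ag+Costim 5 (nearest 0.0215), which is the same observation on the transcript. Naive 3 and Naive 5 were both high for this exon and so did not stand apart from each other. No cause was tested.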

How the results depend on the processing

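Calls depended on the tool, the lane and single libraries. In Ag vs Naive, where 3 members were called, 0 were called without a filter on low counts, with the 10 libraries of the comparison alone or with lane as a term, and 1 to 3 when a library was left out. Those fits called 0.425%, 0.0358%, 0.00% and 1.42% to 21.5% of all genes, where the main fit called 6.71%. In Ag+Costim vs Ag, 3 were called by DESeq2 (11.4% of its 48768 genes with a p) and 3 by voom with sample weights (64.5%) instead of 0 (0.0346%). With a library left out there were 0 to 2, with 2 without Ag 2 (14.8%) or Ag 5 (19.7%). In Ag+Costim vs Naive, 0 were called with lane as a term (5.43%) and 2 within lane 3 (34.7%) instead of 4 (44.7%). With a library left out, 3 to 4 were called (21.6% to 51.0%). Ikzf4 was below the filter in the fit of Ag+Costim vs Ag with 10 libraries. Transcript usage calls went from 0 to 1 with limma diffSplice in Ag vs Naive and to 1 in Ag+Costim vs Naive, and were 0 to 0, 0 to 0 and 0 to 1 with a library left out in Ag vs Naive, Ag+Costim vs Ag and Ag+Costim vs Naive.

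Over the partner and target lists, 6 genes called in Ag vs Naive became 15 with DESeq2, 17 with voom, 3 without the filter and 20 without Ag 3 and Naive 5. Those fits called 5.38% (of 48768 genes), 23.3%, 0.425% and 22.9% of all genes, where the main fit called 6.71%. The 6 became 0 with 10 libraries (0.0358% of all genes) or lane as a term (0.00%), and 4 to 18 with a library left out (1.42% to 21.5%). The 0 of Ag+Costim vs Ag became 11 with DESeq2, 51 with voom, 5 without Ag 3 and Naive 5, and 0 to 12 with a library left out. Those fits called 11.4% (of 48768 genes), 64.5%, 5.73% and 0.00% to 19.7% of all genes, where the main fit called 0.0346%. The 37 of Ag+Costim vs Naive became 20 without the filter, 7 with lane as a term, and 21 to 42 with a library left out. Those fits called 8.49%, 5.43% and 21.6% to 51.0% of all genes, where the main fit called 44.7%. The causes were not tested.

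Signs turned where estimates were small. Ikzf2 in Ag vs Naive was at 0.23 with voom and 0.21 with coding transcripts alone, and ranged from -0.65 to 0.10 with a library left out, with 0.10 without Ag 2 and 0.09 without Ag 5. Ikzf3 in Ag+Costim vs Ag was at 0.15 without the filter and ranged from -0.15 to 0.080 with a library left out, with 0.080 without Ag 4 and 0.05 without Ag+Costim 4. Ikzf5 in Ag+Costim vs Ag was at -0.079 with voom and -0.14 with the Pstk-211 counts added. With a library left out, the difference in share of the Ikzf1 60-base exon in Ag+Costim vs Ag ranged from -0.0180 to 0.0317 and that of the 261-base exon in Ag+Costim vs Naive from -0.000775 to 0.0243, both lowest without Ag+Costim 5. Counting coding transcripts alone and moving the Pstk-211 counts were chosen after seeing the data.

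With the replicate number as a block, 3, 0 and 4 members were called, as without it, and 13, 0 and 38 list genes. Of all genes, 9.56%, 0.00% and 45.1% were called. No member was called for transcript usage in any comparison, beside 0.307%, 0.347% and 1.08% of the genes tested for it. Deviations of libraries with the same number correlated at -0.324 to 0.470, so the numbers were not taken to pair the libraries.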
